A study of Mus musculus with 2 samples.

Results

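The genes described are 8 complement components and regulators, C1ra, C1s1, C4b, C3, Cfb, Serping1, Cd55 and Cd59a, taken by name from the 33696 genes listed in the data. They were followed through 5 classes of cells set by fixed thresholds on marker genes. The identifiers listed for them were ENSMUSG00000055172 for C1ra, ENSMUSG00000038521 for C1s1, ENSMUSG00000073418 for C4b, ENSMUSG00000024164 for C3, ENSMUSG00000090231 for Cfb, ENSMUSG00000023224 for Serping1, ENSMUSG00000026399 for Cd55 and ENSMUSG00000032679 for Cd59a.

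Endothelial-enriched cells of mouse mammary tumors rich in macrophages (PyMT-M, High-MAC) or poor in them (PyMT-N, Low-MAC) were profiled by droplet-based 3′ single-cell RNA sequencing. PyMT-M and PyMT-N are tumor lines, sub-lines of the MMTV-PyMT model, in which the mammary tumor virus promoter drives the polyoma middle T oncogene in mammary epithelium. Both were injected in Matrigel and PBS into the mammary fat pad of female C57BL/6 mice of 6 to 8 weeks, which received no other treatment given in the labels, and cells of 3 tumors were pooled into each library. In both groups CD45+ and Ter119+ cells were removed with beads, cells binding CD31 and CD144 antibodies were retained, and living CD31+ CD144+ cells were sorted. The labels give collagenase I with DNase I for the digestion, whereas the methods of the study give collagenase II, dispase II and DNase I. A condition is 1 library, so no difference between conditions could be tested, and the tumor line and its library cannot be told apart.

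Complement is a cascade of plasma and membrane proteins that marks surfaces for uptake or lysis. In the classical pathway the proteases C1r and C1s, held by C1q, cleave C4 and C2 into a convertase of C3, and in the alternative pathway factor B, encoded by Cfb, forms the convertase with C3b. The C1 inhibitor encoded by Serping1 blocks C1r and C1s, Cd55 (decay-accelerating factor) takes convertases apart on the cell's own surface, and Cd59a stops the membrane attack complex there. Liver is the main source of the plasma proteins, but fibroblasts, macrophages and endothelium also make several of them, and interferon-gamma is a known inducer of some.

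The libraries held 7821 barcodes and 141067264 UMIs (unique molecular identifiers, 1 per captured RNA molecule) in PyMT-M and 6974 barcodes and 116150425 UMIs in PyMT-N. Cells with at least 200 detected genes and at most 10% mitochondrial UMIs were kept, which left 6719 from PyMT-M and 5607 from PyMT-N. The libraries shared 20 barcodes. Blood endothelial cells (at least 5 UMIs over Pecam1, Flt1, Emcn and Kdr, at most 1 over Krt8, Krt18 and Rhox5, none of Prox1) numbered 588 in PyMT-M and 1065 in PyMT-N, with medians of 5206.5 and 12696 UMIs a cell. All 8 endothelial markers not used by this rule were detected in them, at a sum of 4969 CPM in PyMT-M and 5197 CPM in PyMT-N. CPM here is a gene's UMIs as a share of all UMIs summed over the cells of a class in 1 library, on the usual CPM scale.

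Most kept cells were not endothelial by these markers, although the labels give the cell type as endothelial. Cells with at least 3 UMIs over Krt8, Krt18 and Rhox5 and none of Pecam1 or Flt1 made up 73.0% of kept cells in PyMT-M (4902) and 59.0% in PyMT-N (3306). Epithelial markers outside the rule were near 0 in them (Epcam at 3.52 and 0.41 CPM), so they are called keratin/Rhox5 cells here and not tumor cells. Lymphatic cells (at least 3 UMIs over Prox1, Mmrn1 and Reln) numbered 20 and 207, and fibroblasts (Col3a1 of at least 3000 CPM) 58 and 63, in the order PyMT-M then PyMT-N. All 6 lymphatic and all 7 fibroblast markers that the rules did not use were detected in their own class in both libraries. The lymphatic cells of PyMT-M held only 89004 UMIs in all. Cells with a UMI of Ptprc, the gene of CD45, numbered 488 and 357, and they are called Ptprc+ cells. Classes could overlap, with 6 and 56 blood endothelial cells also Ptprc+ and 12 and 9 fibroblasts also keratin/Rhox5 cells. Of the Ptprc+ cells, 41 and 19 were also keratin/Rhox5 cells. Median depths were 23715.5 and 20757.5 UMIs in the keratin/Rhox5 class, against 1721.5 and 7581 UMIs in the Ptprc+ class. Few blood endothelial cells lay near their cut (27 and 21 with a sum of 5 or 6 UMIs), whereas 182 of the Ptprc+ cells of PyMT-M and 53 of those of PyMT-N rested on a single Ptprc UMI.

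RefSeq promoters were matched for 5 of the 8 genes. The 3 shown here are those of the C1 protease pair, both found in most fibroblasts, and of Cd59a, the gene with the least difference between libraries in blood endothelial cells. They run from 250 bases before to 50 bases after the start, 5′ to 3′ on the strand of the gene (GRCm38.p6). C1ra lies at chr6:124512371-124512670 on the plus strand, C1s1 at chr6:124542310-124542609 on the minus strand and Cd59a at chr2:104095551-104095850 on the plus strand. Capitals mark matches to 2 motifs tied to interferon signaling, GAS (TTCNNNGAA) and the ISRE core (GAAANNGAA), searched on both strands.
C1ra: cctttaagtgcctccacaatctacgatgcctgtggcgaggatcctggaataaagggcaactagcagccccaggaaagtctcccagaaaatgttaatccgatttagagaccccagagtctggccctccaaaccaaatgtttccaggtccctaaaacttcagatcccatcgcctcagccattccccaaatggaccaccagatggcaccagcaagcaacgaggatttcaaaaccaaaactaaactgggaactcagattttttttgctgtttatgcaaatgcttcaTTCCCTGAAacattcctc
C1s1: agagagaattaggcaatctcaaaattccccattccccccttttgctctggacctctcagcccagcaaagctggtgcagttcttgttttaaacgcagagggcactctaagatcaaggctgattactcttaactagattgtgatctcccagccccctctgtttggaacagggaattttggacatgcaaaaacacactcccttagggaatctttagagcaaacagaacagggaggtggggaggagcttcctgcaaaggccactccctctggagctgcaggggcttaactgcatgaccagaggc
Cd59a: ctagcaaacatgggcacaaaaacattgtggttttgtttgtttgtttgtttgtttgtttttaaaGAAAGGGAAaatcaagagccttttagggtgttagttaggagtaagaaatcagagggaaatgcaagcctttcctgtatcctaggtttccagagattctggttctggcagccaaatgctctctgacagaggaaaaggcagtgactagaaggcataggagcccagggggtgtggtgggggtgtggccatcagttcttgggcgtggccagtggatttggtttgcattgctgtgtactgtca
The C1ra window held 1 GAS match, 33 bases after the start, the Cd59a window held 1 ISRE core match, 187 bases before it, and neither motif was in the C1s1 window or in those of C3 and Cd55. GAS was in 8.30% and the ISRE core in 8.56% of all 32851 promoters of this length. A match is a description of letters and no measure of binding.

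The 8 genes fell into groups by cell class. Fibroblasts held the highest CPM of C1ra, C1s1, C4b, C3 and Serping1 in both libraries, by intervals that did not reach those of any other class. Cfb was high in fibroblasts and in both endothelial classes, Cd55 in Ptprc+ and lymphatic cells, and Cd59a in blood endothelial cells and the fibroblasts of PyMT-N. Keratin/Rhox5 cells had the C1 proteases above the level in blood endothelium, and under 3 CPM of each other gene.

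**Figure D1:**
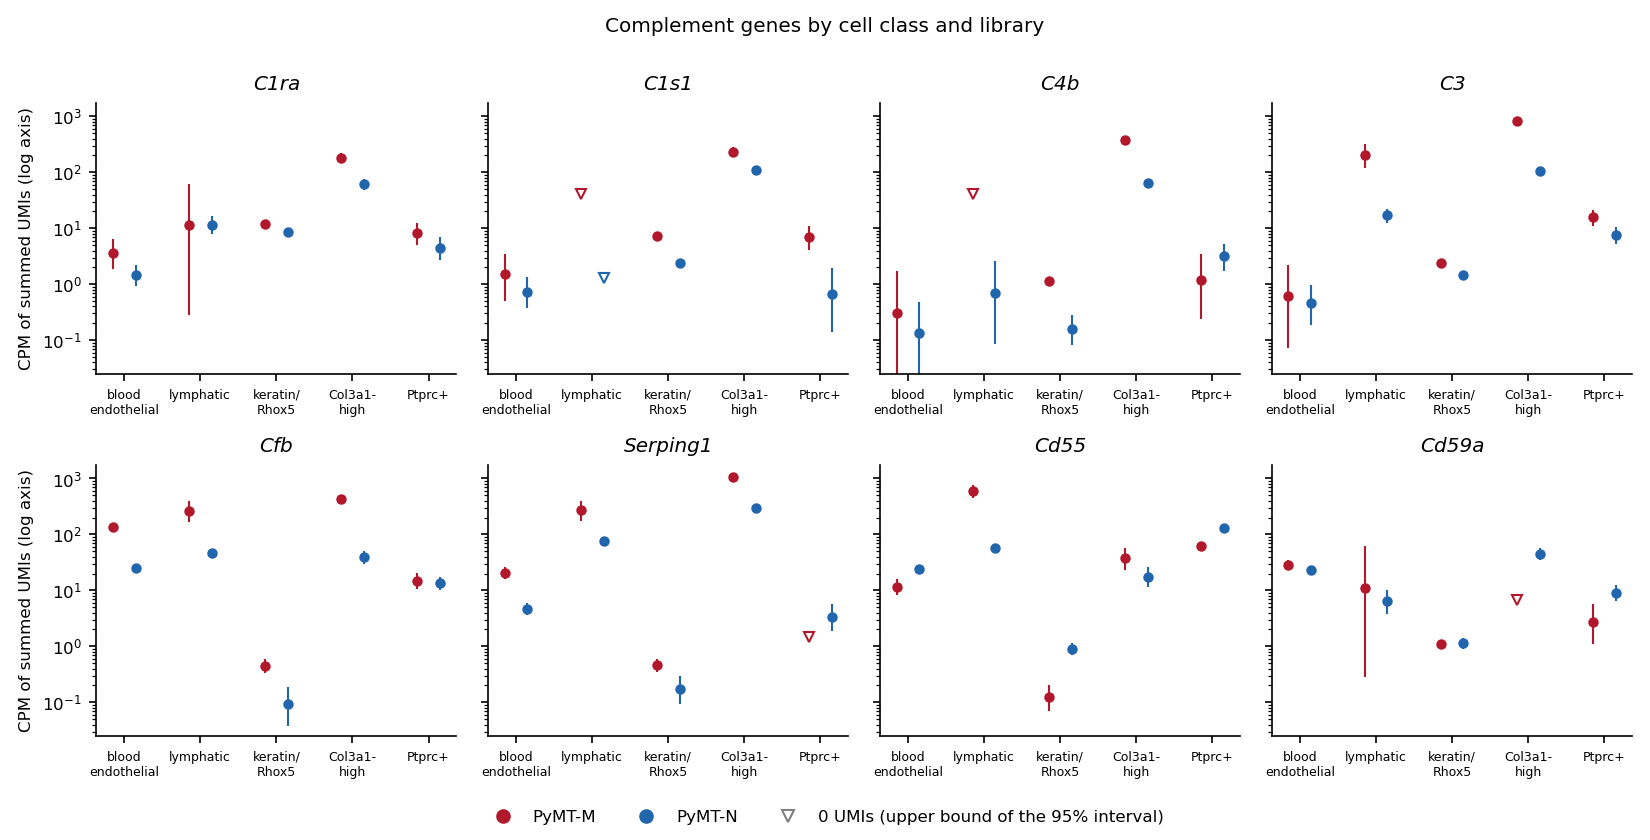
CPM of summed UMIs (log axis) of the 8 genes in the 5 cell classes of PyMT-M (red) and PyMT-N (blue), with exact 95% Poisson intervals; open triangles mark 0 UMIs at the upper bound. Col3a1-high cells (fibroblasts) reach 1052 CPM for Serping1 and 828 CPM for C3 in PyMT-M, while keratin/Rhox5 cells stay under 1 CPM for Cfb, Serping1 and Cd55.

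C1ra, the protease that activates C1s, stood at 181 CPM (95% Poisson interval 146 to 220) in fibroblasts of PyMT-M and 60.7 CPM (49.0 to 74.4) in those of PyMT-N. All intervals here cover counting error only, not the spread between tumors. The next levels in PyMT-M were 11.9 CPM in keratin/Rhox5 cells, 11.2 CPM from 1 UMI in lymphatic cells and 8.20 CPM in Ptprc+ cells, whose intervals overlapped, and the lowest was 3.64 CPM (1.88 to 6.36) in blood endothelial cells. The order was the same in kind in PyMT-N, with 11.6 CPM in lymphatic, 8.68 CPM in keratin/Rhox5, 4.52 CPM in Ptprc+ and 1.48 CPM (0.925 to 2.23) in blood endothelial cells.

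C1s1, the protease that cleaves C4 and C2, stood at 235 CPM (195 to 279) in fibroblasts of PyMT-M and 111 CPM (94.97 to 129) in those of PyMT-N. Keratin/Rhox5 cells held 7.29 CPM (6.82 to 7.79) and 2.38 CPM (2.05 to 2.76), above the 1.52 and 0.738 CPM of blood endothelial cells. No C1s1 UMI was found in lymphatic cells of either library, which allowed up to 41.4 CPM in PyMT-M and up to 1.30 CPM in PyMT-N.

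Each C1 protease was found in most fibroblasts. C1ra was found in 65.5% of all fibroblasts of PyMT-M and 57.1% of those of PyMT-N, and C1s1 in 70.7% and 61.9%. Of the fibroblasts of PyMT-M, 31 held UMIs of both genes, 81.6% of the 38 with C1ra and 75.6% of the 41 with C1s1. In PyMT-N 25 fibroblasts held both, 69.4% of the 36 with C1ra and 64.1% of the 39 with C1s1. These shares lay not far above those of the other gene over all fibroblasts. In keratin/Rhox5 cells the overlap was 246 of 1121 C1ra cells and of 717 C1s1 cells in PyMT-M, and 63 of 515 and of 146 in PyMT-N. These genes lie side by side on chromosome 6 with the near copies C1rb and C1s2, which were nearly silent (at most 3 UMIs in any class and library). Of the 50-base windows in the last 500 bases of the longest transcript, 19.1% of C1ra's also occurred in C1rb and 18.0% of C1s1's in C1s2, so a share of their reads may have been split or dropped in counting.

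C1 protease RNA in keratin/Rhox5 cells was spread thinly over many cells. C1ra UMIs were found in 22.9% of these cells of PyMT-M and 15.6% of those of PyMT-N, and C1s1 UMIs in 14.6% and 4.42%. With each cell thinned to 3000 UMIs, C1ra was found in 3.71% and 2.54% of them, against 1.25% and 0.567% of blood endothelial cells, the class with the lowest level. Measured against fibroblasts, keratin/Rhox5 cells held 6.60% (PyMT-M) and 14.3% (PyMT-N) of the C1ra level, and 3.11% and 2.15% of the C1s1 level. Fibroblast markers were also found there, 7 of 7 with a sum of 62.0 CPM in PyMT-M and 354 CPM in PyMT-N, and their part in the C1ra and C1s1 levels was not tested. Of the 7 markers, Pdgfra stood at 17.3% and 15.4% of its fibroblast level there. The other 6 stood at no more than 0.400% in PyMT-M, and in PyMT-N at 6.78% for Dcn, 2.22% for Postn, 1.01% for Col1a1 and from 0.0885% to 0.982% for Col1a2, Lum and Fbln1.

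C4b, the source of the C4 fragments of the classical convertase, was nearly confined to fibroblasts among these classes. Its level there was 380 CPM (329 to 436) in PyMT-M and 63.4 CPM (51.4 to 77.3) in PyMT-N, found in 74.1% and 19.0% of the cells. Ptprc+ cells held 1.17 and 3.17 CPM, keratin/Rhox5 cells 1.14 and 0.159 CPM and blood endothelial cells 0.303 and 0.134 CPM, the last from 1 and 2 UMIs. The lymphatic cells held 0 and 2 UMIs. C4a, its near copy on chromosome 17, reached at most 15 UMIs in any class, and 38.1% of C4b's end windows also occurred in C4a, so the C4b counts are uncertain to that extent.

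C3, the protein on which all pathways converge, stood at 828 CPM (753 to 909) in fibroblasts of PyMT-M and 105 CPM (89.5 to 123) in those of PyMT-N. Lymphatic cells followed, with 202 CPM (120 to 320) and 16.9 CPM (12.5 to 22.4), then Ptprc+ cells, with 15.6 and 7.46 CPM, and keratin/Rhox5 cells, with 2.42 and 1.44 CPM. Blood endothelial cells were the lowest, with 2 UMIs (0.607 CPM) in PyMT-M and 7 UMIs (0.469 CPM) in PyMT-N. A single cell carried 55.3% of the C3 UMIs of the PyMT-N fibroblasts, and a single cell 50% of those of the PyMT-M lymphatic cells.

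C3 and C4b were found together in fibroblasts of PyMT-M, with 32 cells positive for both, 94.1% of the 34 with C3 and 74.4% of the 43 with C4b. In PyMT-N 9 fibroblasts held both, 56.3% of the 16 with C3 and 75% of the 12 with C4b. Over all fibroblasts C3 was found in 58.6% (PyMT-M) and 25.4% (PyMT-N), and C4b in 74.1% and 19.0%. Ptprc+ cells were also divided by whether they held at least 3 UMIs of myeloid markers, of lymphocyte markers or of both, a division chosen after the values were seen. Those with myeloid markers only had C3 at 52.6 CPM (35.2 to 75.5) in PyMT-M and 66.0 CPM (35.1 to 113) in PyMT-N, the latter from 13 UMIs in 20 cells. Those with both held 29.5 and 6.65 CPM, and those with lymphocyte markers only had 1 and 3 UMIs.

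Cfb, the factor B gene of the alternative pathway, was carried by blood endothelial cells as well as by fibroblasts and lymphatic cells. It stood at 133 CPM (121 to 146) in blood endothelial cells of PyMT-M and 24.7 CPM (22.3 to 27.4) in those of PyMT-N. Fibroblasts held 424 CPM (371 to 483) and 39.2 CPM (29.9 to 50.4), and lymphatic cells 258 CPM (164 to 388) and 45.8 CPM (38.3 to 54.4). The intervals of fibroblasts and lymphatic cells overlapped in both libraries, and blood endothelial cells lay below both. Ptprc+ cells had 14.8 and 13.6 CPM, and keratin/Rhox5 cells 0.447 and 0.0926 CPM. Blood endothelial cells thus held 31.4% of the Cfb level of fibroblasts in PyMT-M and 63.2% in PyMT-N. None of the 7 fibroblast markers reached more than 0.539% of its fibroblast level there. Any part of fibroblasts or lymphatic cells in the Cfb level of blood endothelial cells was not tested.

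Cfb was found in 41.0% of blood endothelial cells of PyMT-M and 19.0% of those of PyMT-N, although the cells of PyMT-N were the deeper. At 3000 UMIs a cell, which left out 108 and 7 shallower cells, the shares were 28.1% (95% Clopper-Pearson interval 24.1 to 32.4) and 6.71% (5.28 to 8.39). The keratin/Rhox5 cells, with medians of 23715.5 and 20757.5 UMIs before thinning, had Cfb in 0.163% of thinned cells in PyMT-M and in 0 of 3304 in PyMT-N.

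Serping1, the C1 inhibitor gene, followed Cfb in kind but with a steeper step from fibroblasts to blood vessels. Fibroblasts held 1052 CPM (967 to 1142) in PyMT-M and 291 CPM (265 to 320) in PyMT-N, and lymphatic cells 270 CPM (173 to 401) and 77.2 CPM (67.3 to 88.2). Blood endothelial cells held 20.3 CPM (15.7 to 25.8) and 4.69 CPM (3.66 to 5.93), or 1.93% and 1.61% of the fibroblast level. Ptprc+ cells had 0 UMIs in PyMT-M, which allowed up to 1.44 CPM, and 3.39 CPM in PyMT-N, and keratin/Rhox5 cells had 0.455 and 0.172 CPM. Of the fibroblasts with Cfb, 40 of 41 in PyMT-M (97.6%) and 17 of 20 in PyMT-N (85%) also held Serping1, as did 31 of 44 lymphatic cells of PyMT-N (70.5%) and 27 of 241 blood endothelial cells of PyMT-M (11.2%). With or without Cfb, Serping1 was found in 86.2% and 63.5% of fibroblasts. It was found in 44.4% of lymphatic cells of PyMT-N and 6.63% of blood endothelial cells of PyMT-M.

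Cd55, the decay-accelerating factor gene, had its highest level in lymphatic cells in PyMT-M and in Ptprc+ cells in PyMT-N. Lymphatic cells of PyMT-M held 595 CPM (446 to 779), followed by Ptprc+ cells with 60.9 CPM (51.7 to 71.3) and fibroblasts with 37.2 CPM (22.7 to 57.5), whose intervals overlapped. In PyMT-N Ptprc+ cells led with 128 CPM (118 to 139), before lymphatic cells with 56.8 CPM (48.4 to 66.3). Blood endothelial cells held 11.5 CPM (8.16 to 15.8) and 24.5 CPM (22.1 to 27.2), and keratin/Rhox5 cells 0.124 and 0.887 CPM. Of the 53 Cd55 UMIs in lymphatic cells of PyMT-M, 35.9% came from 1 cell, and of the 27 in fibroblasts of PyMT-N, 74.1%. Within Ptprc+ cells, those with lymphocyte markers only held 141 CPM (115 to 171) in PyMT-M and 186 CPM (164 to 210) in PyMT-N, those with both marker sets 75.5 and 129 CPM, and those with myeloid markers only 2 UMIs in each library.

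Cd59a, the membrane attack complex inhibitor, stood at 28.8 CPM (23.3 to 35.2) in blood endothelial cells of PyMT-M and 22.7 CPM (20.3 to 25.2) in those of PyMT-N. No Cd59a UMI was found in the fibroblasts of PyMT-M, which allowed up to 6.87 CPM, whereas those of PyMT-N held 44.4 CPM (34.5 to 56.3) in 36.5% of the cells. Ptprc+ cells held 2.73 and 9.05 CPM, lymphatic cells 11.2 CPM from 1 UMI and 6.35 CPM, and keratin/Rhox5 cells 1.11 and 1.12 CPM. Its near copy Cd59b had at most 39 UMIs and Cd55b, that of Cd55, at most 18 in any class, and no end window of Cd59a or Cd55 occurred in its copy.

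Fibroblasts carried several of these genes at once. A fibroblast held UMIs of a mean of 4.47 of the 8 genes in PyMT-M and 3.08 in PyMT-N. At least 3 were found in 77.6% and 58.7% of them. The means were 1.85 and 1.23 in lymphatic, 0.692 and 0.650 in blood endothelial, 0.412 and 0.857 in Ptprc+ and 0.474 and 0.268 in keratin/Rhox5 cells. Depth differed between these classes and libraries, and these means were not thinned.

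Within a library, fibroblasts and blood endothelial cells were set against each other with cells that met both rules left out. Of the 8 genes, 7 were at least 2-fold higher in fibroblasts of PyMT-M and 1 was lower, and past 2-fold stood 31.9% of the 10536 genes with at least 20 UMIs over both classes. The median log2 ratio was 5.76 over the 8 genes and -0.17 over all genes compared. In PyMT-N 5 were higher, none was lower and 3 stood within 2-fold, where 35.6% of 13452 genes stood past 2-fold, and the medians were 5.66 and -0.18.

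The step from fibroblasts to blood endothelium was steep for the classical pathway genes in both libraries. Serping1 was 57.9-fold higher in fibroblasts of PyMT-M and 62.0-fold higher in those of PyMT-N, and C1ra 50.4-fold and 41.2-fold. C1s1 had log2 ratios of 7.60 (95% conditional binomial interval 6.21 to 9.50) and 7.23. C3 had log2 ratios of 10.44 (8.58 to 13.49) and 7.81, the first against 2 UMIs in blood endothelium, and C4b 10.31 and 8.88, against 1 and 2 UMIs.

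Cfb and the membrane regulators had a flatter profile. Cfb was 3.24-fold higher in fibroblasts of PyMT-M (log2 ratio 1.69, 1.46 to 1.93) and within 2-fold in PyMT-N (0.66, 0.24 to 1.06). Cd55 had a log2 ratio of 1.71 in PyMT-M and of -0.48 in PyMT-N. Cd59a was 5.08-fold lower in fibroblasts of PyMT-M with its 0 UMIs set at a floor of 3 counts over the class. Its log2 ratio was then -2.35, with an interval that reached up to -2.02, and it was 0.97 in PyMT-N.

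Keratin/Rhox5 cells held less Cfb, Serping1, Cd55 and Cd59a and more C1ra and C1s1 than blood endothelial cells. Of the 8 genes, 4 were higher and 4 lower past 2-fold in PyMT-M, where 45.6% of 15269 genes stood past it, and of 7 compared in PyMT-N 3 were higher and 4 lower, where 40% of 15994 did. The median log2 ratio of the genes was -1.49 in PyMT-M, where that over all genes was -0.25, and -4.33 in PyMT-N, where it was -0.10. Cfb was 298-fold and 267-fold lower in keratin/Rhox5 cells, Serping1 44.7-fold and 27.3-fold, Cd55 92.9-fold and 27.7-fold, and Cd59a 26.0-fold and 20.2-fold. The C1 proteases went the other way, with log2 ratios of 1.71 and 2.56 for C1ra and 2.27 and 1.69 for C1s1. C3 was also higher in keratin/Rhox5 cells, at 1.99 and 1.62, against 2 and 7 UMIs in blood endothelium, and so was C4b in PyMT-M, at 1.91 (-0.59 to 7.23) against 1 UMI.

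The libraries were then compared within each class, with past 2-fold meaning a CPM ratio of at least 2 either way and at least 20 UMIs over both libraries. In blood endothelial cells 5 of the 8 genes had enough UMIs, and 4 stood past 2-fold, against 14.3% of 13193 genes. Higher in PyMT-M were 3, against 5.33% of genes, and lower was 1, against 8.93%. The median log2 ratio was 1.30 over these 5 genes and -0.02 over all genes compared.

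Cfb was 5.38-fold higher in blood endothelial cells of PyMT-M, a log2 ratio of 2.43 (2.22 to 2.63). Serping1 was 4.33-fold higher, a log2 ratio of 2.11 (1.61 to 2.62), on 67 and 70 UMIs. C1ra, on 12 and 22 UMIs, had a ratio of 1.30 (0.15 to 2.38). Cd59a stood within 2-fold, at 0.35 (0.00193 to 0.68), and Cd55 was 2.13-fold lower in PyMT-M, at -1.09 (-1.61 to -0.61).

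The sizes of these differences depended on which cells were counted. Leaving out cells with at least 2 UMIs over markers of other classes left 544 of 588 blood endothelial cells of PyMT-M and 450 of 1065 of PyMT-N. The log2 ratio was then 1.48 for Cfb, 0.52 for Serping1 and 0.22 for C1ra, so that only Cfb remained past 2-fold. This rule did not act alike in the libraries. The PyMT-N cells were the deeper, and the parts of depth and of single markers in this were not tested. The markers of the rule included pericyte genes. Of these, Kcnj8 was found in 4.42% and 39.2% of blood endothelial cells (PyMT-M then PyMT-N), and Abcc9 in 11.2% and 59.2%. Rgs5, Pdgfrb, Cspg4 and Notch3 were each found in at most 3.66% of these cells in either library. Their CPM was higher in PyMT-M, at 64.6 and 2.88 for Rgs5 and 8.49 and 3.02 for Pdgfrb. Cspg4 stood at 4.55 and 0.604 CPM and Notch3 at 13.95 and 0.201 CPM.

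**Figure D2:**
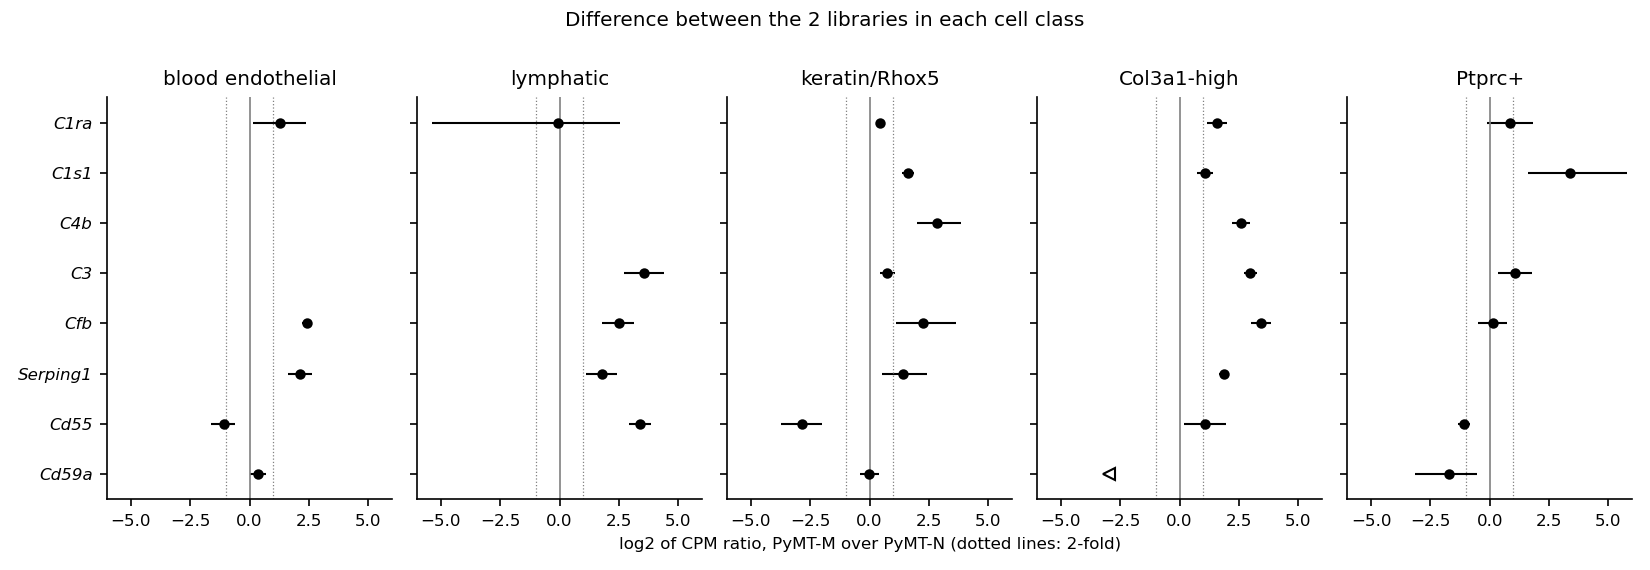
Log2 of the CPM ratio of PyMT-M over PyMT-N for each gene in the 5 cell classes, with exact 95% conditional binomial intervals. Dotted lines mark 2-fold, and the open triangle marks the ratio where 0 UMIs of PyMT-M were set to 3 counts. Genes with under 20 UMIs over both libraries are left out. Cfb lies at 2.27 to 3.44 in all classes but Ptprc+ cells, where it lies at 0.13, and Cd55 lies on both sides of 0.

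The Cd55 difference in blood endothelium went with cells that also held Ptprc RNA. In PyMT-N the 56 blood endothelial cells with a Ptprc UMI (median 19782 UMIs) carried 216 of the 366 Cd55 UMIs of the class, at 179 CPM (156 to 204). Without them Cd55 stood at 10.95 CPM (9.27 to 12.8) in PyMT-N and, without 6 such cells, at 11.05 CPM (7.74 to 15.3) in PyMT-M, a log2 ratio of 0.01 (-0.55 to 0.55). Myeloid markers were detected 5 of 6 in PyMT-M and 6 of 6 in PyMT-N, at sums of 20.9 and 147 CPM over all blood endothelial cells, and lymphocyte markers 5 of 5 in both, at 12.1 and 110 CPM. The ratios of the other genes moved little without Ptprc+ cells, to 2.42 for Cfb, 2.12 for Serping1, 1.34 for C1ra and 0.26 for Cd59a.

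In lymphatic cells 5 genes had enough UMIs and 4 stood past 2-fold, all higher in PyMT-M, against 31.7% of 10079 genes past 2-fold, 21.1% higher and 10.7% lower. The medians were 2.49 for the 5 genes and 0.19 for all genes. C3 was 11.9-fold higher (log2 ratio 3.58, 2.71 to 4.39), Cd55 10.5-fold (3.39, 2.91 to 3.85), Cfb 5.64-fold (2.49, 1.79 to 3.14) and Serping1 3.49-fold (1.80, 1.13 to 2.41). The PyMT-M side rests on 20 cells, and without the cell richest in each gene the ratios were 2.99 for C3, 2.97 for Cd55, 1.94 for Cfb and 1.59 for Serping1. C1ra, with 1 UMI in PyMT-M, had a ratio of -0.05 (-5.40 to 2.53). The markers of the class differed as well, with 6 lymphatic markers summing to 5775 CPM in PyMT-M and 14510 CPM in PyMT-N. Most of the PyMT-N sum was Ccl21a, at 1416 CPM in PyMT-M and 11606 CPM in PyMT-N. Pdpn, Flt4 and Maf were also higher in PyMT-N. Lyve1 (1449 and 456 CPM) and Nts (1944 and 743 CPM) were higher in PyMT-M. Fibroblast markers, 3 of 7 and 6 of 7 detected, summed to 292 and 177 CPM, and the part of either in these ratios was not tested.

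In fibroblasts all 8 genes had enough UMIs and all stood past 2-fold, 7 higher and 1 lower in PyMT-M, against 21.3% of 9015 genes, 8.79% higher and 12.5% lower. These include the 12 of 58 (PyMT-M) and 9 of 63 (PyMT-N) fibroblasts that were also keratin/Rhox5 cells, and median depths were 7639 and 23413 UMIs. The medians were 1.71 for the 8 genes and -0.04 for all genes. Cfb was 10.8-fold higher (log2 ratio 3.44, 3.02 to 3.87), C3 7.88-fold (2.98, 2.71 to 3.25), C4b 5.99-fold (2.58, 2.23 to 2.95) and Serping1 3.61-fold (1.85, 1.67 to 2.03). The C1 proteases were closer to the threshold, C1ra 2.97-fold higher (1.57, 1.15 to 2.00) and C1s1 2.11-fold (1.08, 0.73 to 1.42). Cd55 was 2.11-fold higher on 20 and 27 UMIs (1.08, 0.17 to 1.97). Cd59a was 7.95-fold lower with its 0 UMIs in PyMT-M set to 3 counts, a log2 ratio of -2.99 with an interval that reached up to -2.65.

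Single cells weighed on the fibroblast values of PyMT-N. Without the cell richest in each gene in each library, C3 stood at 694 against 47.7 CPM (log2 ratio 3.86), C4b had a ratio of 3.03 and Cd55 one of 2.81 on 17 and 7 UMIs. The shares of cells moved the same way at 3000 UMIs a cell, over 51 cells of PyMT-M and 62 of PyMT-N. C3 was found in 54.9% and 11.3% of them, C4b in 56.9% and 4.84%, Cfb in 52.9% and 12.9%, Serping1 in 76.5% and 41.9%, C1s1 in 49.0% and 27.4% and C1ra in 39.2% and 14.5%. Summed fibroblast markers went the other way, at 20072 CPM in PyMT-M and 27750 CPM in PyMT-N, but not each marker did. Col1a1, Col1a2, Postn and Pdgfra were higher in PyMT-N, whereas Dcn (2771 and 1114 CPM) and Fbln1 (225 and 151 CPM) were higher in PyMT-M. Lum stood at 635 and 620 CPM. The part of these markers in the differences was not tested.

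In keratin/Rhox5 cells 5 of the 8 genes stood past 2-fold, 4 higher and 1 lower in PyMT-M, against 49.1% of 16966 genes, 21.5% higher and 27.6% lower, so that the background alone was nearly as high. The medians were 1.07 for the 8 genes and -0.13 for all genes. C4b was 7.19-fold higher (log2 ratio 2.85, 1.99 to 3.83) and C1s1 3.06-fold (1.61, 1.38 to 1.85). C3 at 0.74, C1ra at 0.46 and Cd59a at -0.02 stood within 2-fold. Cfb (2.27), Serping1 (1.40) and Cd55 (-2.84) passed it at levels under 1 CPM in both libraries. With cells that met another class rule left out, Serping1 had a ratio of 0.06 and Cd55 one of -5.38 on 2 and 52 UMIs.

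In Ptprc+ cells 6 genes had enough UMIs and 4 stood past 2-fold, 2 higher and 2 lower in PyMT-M, against 26.7% of 12247 genes, 11% higher and 15.6% lower. The medians were 0.49 for the 6 genes and -0.10 for all genes. C1s1 had a log2 ratio of 3.37 (1.60 to 5.78), on 18 and 3 UMIs, C3 of 1.07 (0.36 to 1.78), Cd55 of -1.07 (-1.34 to -0.81) and Cd59a of -1.73 (-3.13 to -0.55). Cfb, at 0.13 (-0.50 to 0.74), did not differ beyond its counting interval. Cells that were also blood endothelial carried 3 of its 38 UMIs in PyMT-M and 26 of its 60 in PyMT-N. The Ptprc+ cells were a mixture, with 208 of 488 in PyMT-M and 181 of 357 in PyMT-N carrying lymphocyte markers only, 109 and 20 myeloid markers only, and 36 and 118 both, and whether the last are single cells was not tested. The remaining 135 and 38 held under 3 UMIs of either marker set. They carried 13 of the 18 C1s1 UMIs of PyMT-M and 2 of the 3 of PyMT-N. Of all Ptprc+ cells, 41 in PyMT-M and 19 in PyMT-N were also keratin/Rhox5 cells. That class held C1s1 at 7.29 and 2.38 CPM, and the part of the shared cells in the C1s1 ratio was not tested. Cd55 had a ratio of -0.32 without cells that met another class rule and of -0.04 as a mean over cells.

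Cfb was then followed through blood endothelial cells ranked by 9 interferon-induced genes (Irf1, Gbp2, Gbp4, Igtp, Irgm1, Cxcl9, Cxcl10, Psmb8 and Tap1) and cut into 3 equal groups within each library. In PyMT-M Cfb stood at 93.1 CPM (75.9 to 113) in the lowest, 102 CPM (84.7 to 122) in the middle and 208 CPM (181 to 237) in the highest group. In PyMT-N it stood at 7.97 CPM (5.66 to 10.9), 13.1 CPM (10.2 to 16.5) and 55.9 CPM (49.3 to 63.1). The highest group stood above both others in each library, and the intervals of the lower pair overlapped, in PyMT-N only just.

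The libraries did not line up on this scale. The lowest group of PyMT-M, at 392 CPM of summed interferon-induced genes, held more Cfb than the highest group of PyMT-N, at 1514 CPM of them. The same UMIs ranked the cells and gave these sums, so counting error lowers the first sum and raises the second. Median depths were 5045 and 11407 UMIs a cell in these groups, and the size of this effect was not tested. Over all blood endothelial cells the 9 genes summed to 1593 CPM in PyMT-M and 667 CPM in PyMT-N.

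Serping1 had a like profile in PyMT-N, with 1.23, 1.49 and 12.03 CPM (9.09 to 15.6) from the lowest to the highest group, but not in PyMT-M, with 26.7, 11.3 and 23.6 CPM. In PyMT-M the 29 UMIs of the lowest group came from 10 cells, and the share of cells with Serping1 was 5.10%, 4.08% and 10.7% from the lowest to the highest group, against 1.41%, 1.69% and 7.32% in PyMT-N. Cd59a was level, between 26.0 and 31.4 CPM in PyMT-M and between 20.5 and 24.3 CPM in PyMT-N, with overlapping intervals throughout. Cd55 stood at 16.95, 21.5 and 36.1 CPM in PyMT-N, but at 10.8, 9.74 and 12.7 CPM without Ptprc+ cells, of which 30 fell in the highest group.

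**Figure D3:**
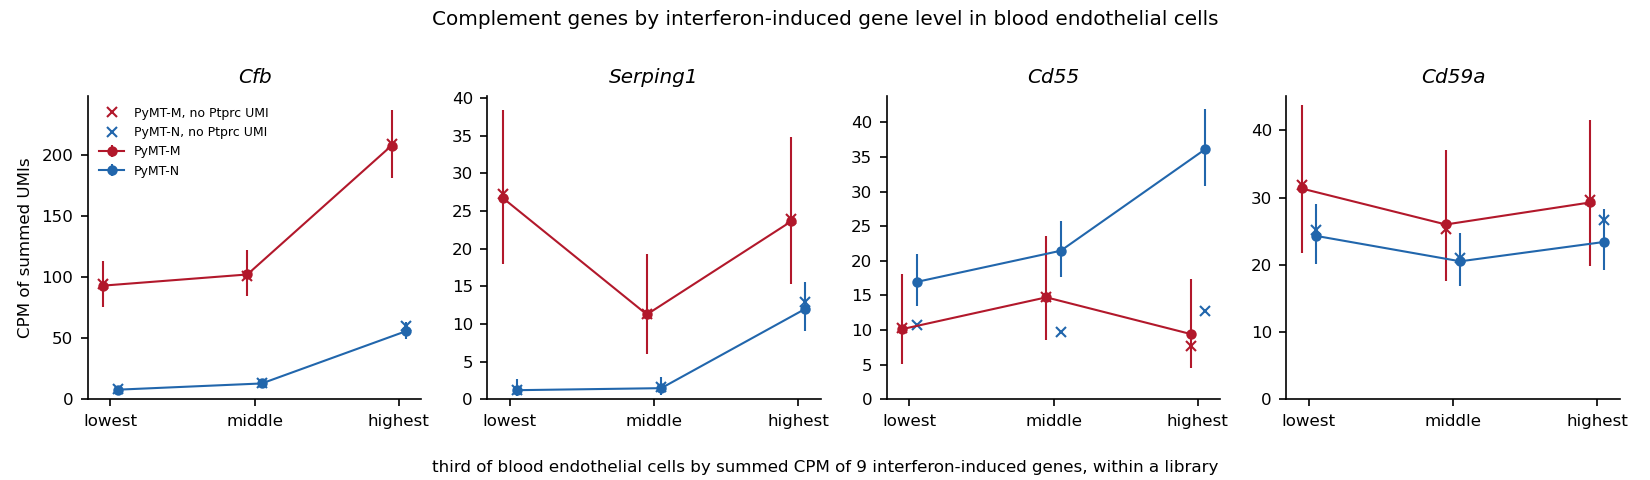
CPM of Cfb, Serping1, Cd55 and Cd59a in the lowest, middle and highest of 3 equal groups of blood endothelial cells by the summed CPM of 9 interferon-induced genes, ranked within PyMT-M (red) and PyMT-N (blue), with exact 95% Poisson intervals; crosses leave out cells with a Ptprc UMI. Cfb reaches 208 CPM in PyMT-M and 55.9 CPM in PyMT-N in the highest group, and the crosses part from the points for Cd55 in PyMT-N.

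The vessel states were marked by at least 3 UMIs of arterial, capillary, venous, tip or cycling markers, and a cell could bear several. Cfb was found in all of them, from 94.01 CPM (74.99 to 116) in cycling to 223 CPM (168 to 289) in arterial cells of PyMT-M and from 17.3 CPM (12.7 to 23.0) in arterial to 33.6 CPM (29.0 to 38.6) in venous cells of PyMT-N. Every state of PyMT-M lay above every state of PyMT-N for Cfb. The arterial cells, 53 in PyMT-M and 171 in PyMT-N, came first in one library and last in the other, by intervals that overlapped the next state.

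Serping1 was higher in arterial and venous than in capillary and tip cells. Its level was 75.6 CPM (45.5 to 118) in arterial and 54.6 CPM (39.3 to 73.7) in venous cells of PyMT-M, against 9.45 CPM (6.23 to 13.7) in capillary and 9.81 CPM in tip cells. In PyMT-N the same states held 8.10 CPM (5.08 to 12.3), 8.65 CPM (6.42 to 11.4), 2.85 CPM (2.01 to 3.91) and 3.63 CPM (2.50 to 5.09), where the intervals of arterial and tip cells just touched. Cycling cells held 24.6 CPM (15.4 to 37.3) in PyMT-M and 3.02 CPM (1.30 to 5.94) in PyMT-N. The arterial value of PyMT-M rested on 19 UMIs, found in 13.2% of 53 cells.

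Cd59a values had a like order in smaller steps, but most intervals overlapped. PyMT-M arterial cells held 39.8 CPM (19.1 to 73.2) on 10 UMIs and venous cells 44.2 CPM (30.6 to 61.7). Its capillary cells held 26.9 CPM (21.3 to 33.7) and tip cells 19.1 CPM (13.5 to 26.3), and only the venous and tip intervals parted. In PyMT-N arterial cells held 35.7 CPM (29.0 to 43.6), above 22.4 CPM (19.9 to 25.1) in capillary and 22.2 CPM (19.2 to 25.5) in tip cells. Venous cells held 28.4 CPM (24.2 to 33.1), an interval that overlapped the others. Cd55 was at 0 UMIs in arterial cells of PyMT-M, which allowed up to 14.7 CPM, and between 8.90 CPM in tip and 28.3 CPM (22.2 to 35.4) in cycling cells of PyMT-N. The states include cells with a Ptprc UMI, which carried 216 of the 366 Cd55 UMIs of PyMT-N blood endothelium. The share of these cells in the level of each state was not tested. The remaining members had at most 22 UMIs in the blood endothelial cells of either library and were not followed by state.

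**Figure D4:**
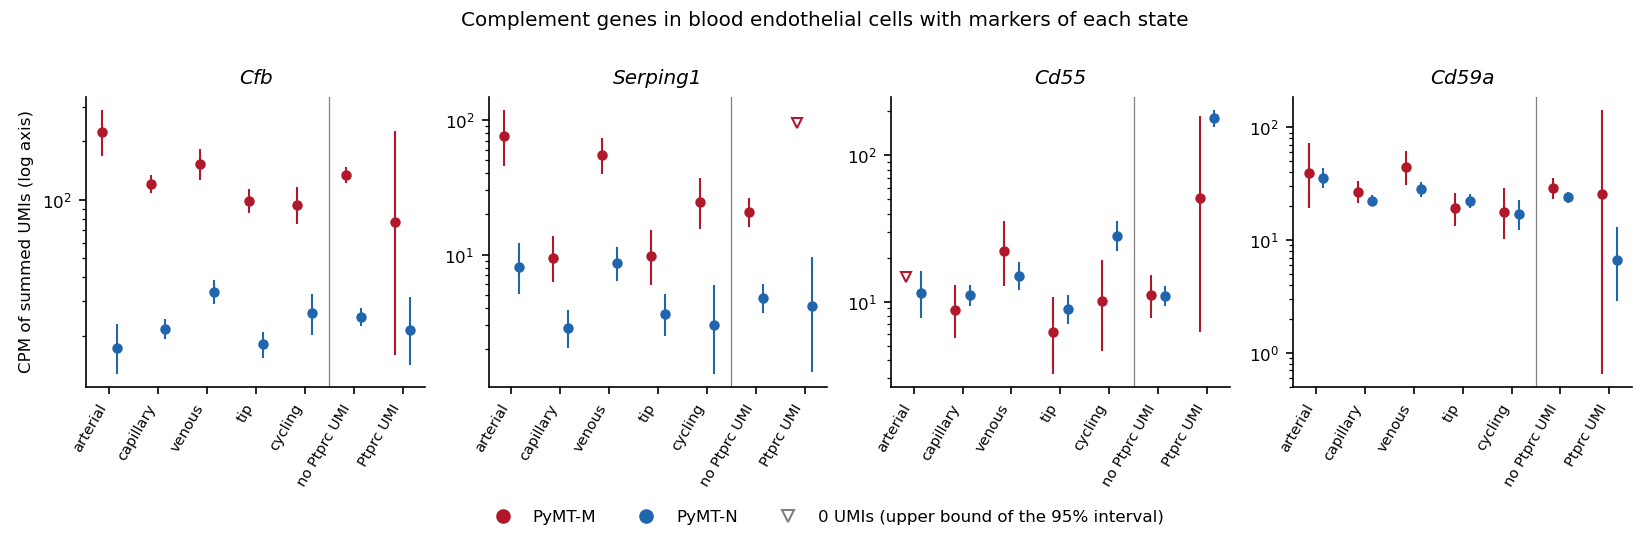
CPM (log axis) of Cfb, Serping1, Cd55 and Cd59a in blood endothelial cells of PyMT-M (red) and PyMT-N (blue) that bear markers of each vessel state, and, right of the line, in those without and with a Ptprc UMI, with exact 95% Poisson intervals; open triangles mark 0 UMIs at the upper bound. Cfb of PyMT-M lies above that of PyMT-N in every state, and Cd55 reaches 179 CPM in the PyMT-N cells with a Ptprc UMI.

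The 3 genes closest in profile to each member were taken over the 10 class and library sums, by the Pearson correlation of log2(CPM + 5) among 13686 genes. C1s1 went with Arsi, Rarres2 and Sod3 (r of 0.987 to 0.995), C4b with Ogn, Apod and Ptgis (0.991 to 0.993), C1ra with Scara5, Sobp and Sod3 (0.955 to 0.961), and Serping1 with Pkdcc, Slc33a1 and Abi3bp (0.965 to 0.971). C3 went with Tnxb, Ndrg3 and Il33 (0.944 to 0.956) and Cfb with Ints1, Rcan1 and Nod1 (0.924 to 0.971). The membrane regulators had other company, Cd55 with Cmah, Fhit and Serpina3g (0.952 to 0.984) and Cd59a with Dcun1d2, Arl5a and Cog1 (0.876 to 0.924). The 10 points share 2 libraries and 5 classes of unequal depth, so these values are descriptions.

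Of 38 other complement genes, 15 had enough UMIs in blood endothelial cells, 2 of them higher and 9 lower past 2-fold in PyMT-M, against 5.33% of all genes higher and 8.93% lower. The 9 were the C1q chains, Cfp (properdin) and the receptor genes Cr2, C3ar1, Itgam, Itgax and Itgb2, most of them known from leukocytes. C2, whose gene lies next to Cfb, stood at 4.55 CPM in PyMT-M and 1.14 CPM in PyMT-N, on 15 and 17 UMIs. Masp1, a lectin pathway protease, stood at 5.76 and 1.07 CPM, on 19 and 16 UMIs. Keratin/Rhox5 cells held C2 at 36.6 and 0.344 CPM and Masp1 at 0.0414 and 10.6 CPM. Their part in the blood endothelial values was not tested. The C1q chains C1qa, C1qb and C1qc stood at 113, 88.0 and 60.03 CPM in PyMT-N and at most 0.607 CPM in PyMT-M, and 8 UMIs of each were left in PyMT-N without Ptprc+ cells. The membrane regulators Cr1l (111 and 99.7 CPM) and Cd46 (8.80 and 9.26 CPM), and the soluble regulator Clu (88.0 and 55.9 CPM), stood within 2-fold. No terminal pathway gene reached 20 UMIs there, and the highest level of that group was that of Hc, the C5 gene, in fibroblasts (27.9 and 37.2 CPM).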

How the data were processed

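Endothelial-enriched mouse mammary tumor cells were measured in 2 droplet libraries. For both, the authors deposited raw UMI counts per gene and barcode, in whole numbers without normalization, made with Cell Ranger 8.0.0 against mm39 per the submitters' processing notes. Which annotation version was counted is not stated in those notes or the methods. Counting on UMIs removes PCR copies, and 3′ capture leaves levels of different genes not comparable.

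Cells with at least 200 genes and at most 10% mitochondrial UMIs were kept. The study also limits the gene number to within 2-fold of the median, which was tried as an alternative. UMIs were summed per class and library and given as CPM. Exact Poisson intervals (CPM), conditional binomial intervals (ratios) and Clopper-Pearson intervals (shares) are at 95%. With 1 library per condition no test was made and no p-value was computed. Ratios were called past 2-fold with at least 20 UMIs over both sides, and a side at 0 UMIs was set to a floor of 3 counts over the class. Shares of cells were compared after thinning cells to 3000 UMIs. The study's methods name no doublet caller and none was run here. Cells with markers of other classes, cells in several classes and the 6% of cells with the most UMIs were left out as alternatives in its place. The median kept cell held 21262 UMIs (PyMT-M) or 18558 (PyMT-N).

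The genes named are the 8 members, their near copies C4a, C1rb, C1s2, Cd59b and Cd55b, those of 38 other complement genes that reached 20 UMIs, summed over PyMT-M and PyMT-N, in blood endothelial cells or the highest class of a group, and the 3 genes closest in profile to each member among those with at least 200 UMIs. The other complement genes were C1qa, C1qb, C1qc, C2, Masp1, Masp2, Mbl1, Mbl2, Fcna, Fcnb, Colec10, Colec11, Cfd, Cfp, Hc, C6, C7, C8a, C8b, C8g, C9, Cfi, C4bp, Clu, Vtn, Cpn1, Cr1l, Cd46, Susd4, Csmd1, C3ar1, C5ar1, C5ar2, Cr2, Itgam, Itgax, Itgb2 and Vsig4. Members, lists and class rules were chosen with earlier results of these data known. Promoters came from RefSeq (GRCm38.p6), another build than that of the counts, and were used only as sequence. Shared windows came from transcripts of GRCm38. A gene of the complement list and one of the interferon-induced list are not reported here and entered no count or sum over these lists. Only the ratios and their intervals were tried on simulated data, Poisson counts for the blood endothelial comparison, which is the model the intervals assume. Class rules, thinning and the grouping of cells were not simulated. Sums, intervals and plots were made in Python 3.11.15 (scipy 1.17.1, numpy 2.4.6, matplotlib 3.10.9, pandas 2.3.3).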

Additional observations from a re-analysis of the deposited data

Results flagged for a closer look

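Cd55 stood apart because the libraries differed in opposite directions in different cell classes. Its log2 CPM ratio of PyMT-M over PyMT-N was 3.39 in lymphatic cells and 1.08 in fibroblasts, but -1.09 in blood endothelial cells, -2.84 in keratin/Rhox5 cells and -1.07 in Ptprc+ cells. The difference between classes was not tested, since each condition is 1 library. The blood endothelial ratio was 0.013 without cells holding a Ptprc UMI, and that of Ptprc+ cells was -0.32 over cells in only 1 class and -0.04 as a mean over cells, so neither stood past 2-fold then. The lymphatic value rests on 20 cells of PyMT-M and the fibroblast value on 20 and 27 UMIs.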

How the results depend on the processing

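No paired analysis was possible because each condition has 1 library. Leaving out a replicate was not possible for the same reason. Without cells holding markers of another class, the members past 2-fold between libraries numbered 1 of 5 compared in blood endothelial cells (from 4), 2 of 3 in Ptprc+ cells (from 4), 5 of 5 in fibroblasts (from 8) and 2 of 5 in keratin/Rhox5 cells (from 5), and in PyMT-N 3 of 4 between fibroblasts and blood endothelium and 4 of 4 between keratin/Rhox5 cells and blood endothelium. This rule left 16 and 2 fibroblasts and 934 and 75 keratin/Rhox5 cells, so fewer members had enough UMIs. Of blood endothelial cells it left 544 of 588 in PyMT-M and 450 of 1065 in PyMT-N, so it did not act alike in the libraries. The shares of all genes past 2-fold were then 7.03%, 15.2%, 31.8%, 38.8%, 66.6% and 37.9%, in the same order. With at least 200 UMIs required, the counts were 2 of 3 in blood endothelial, 1 of 1 in Ptprc+, 5 of 5 in fibroblast and 1 of 4 in keratin/Rhox5 cells between libraries, 4 of 4 in PyMT-M and 1 of 4 in PyMT-N for fibroblasts against blood endothelium, and 5 of 5 in PyMT-M and 4 of 4 in PyMT-N for keratin/Rhox5 cells against it, since fewer members passed the minimum. The shares of all genes were 6.73%, 17.5%, 16%, 42%, 29.9%, 29.5%, 38.9% and 32.4%, in that order. The Cd55 difference in blood endothelial cells was lost with cells in only 1 class, at a ratio of 0.017. It was also lost without cells with a Ptprc UMI, at 0.013 (-0.55 to 0.55). For C3 in Ptprc+ cells the direction turned, to -0.63 on 8 and 26 UMIs with the gene number within 2-fold of the median. The cause was not tested. Of the ratios of single members between libraries, 32 of 32 moved by less than their counting interval with at most 5% mitochondrial UMIs, with the median of all genes set to 0 and without barcodes shared by the libraries, and 31 of 32 with the total taken without mitochondrial, ribosomal-protein and hemoglobin genes. Leaving out cells with markers of another class moved 14 of 21, cells in only 1 class 10 of 30 besides the lost difference of Cd55, and stricter class thresholds 9 of 31. The gene-number limit of the study moved 4 of 32 besides the turned direction of C3. It left 309 of 588 blood endothelial, 7 of 20 lymphatic and 88 of 488 Ptprc+ cells of PyMT-M. In PyMT-N it left 1031 of 1065, 199 of 207 and 203 of 357. The alternatives that left out shared barcodes, blood endothelial cells with a Ptprc UMI or the cell richest in a gene were chosen after seeing the data. Depth limits lymphatic cells of PyMT-M most, where 89004 UMIs make 1 UMI of a gene 11.2 CPM.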

Other observations

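Several complement genes outside the 8 members differed between the keratin/Rhox5 cells of the libraries. C2, the protease component that pairs with C4b, stood at 36.6 CPM in PyMT-M, in 54.4% of the cells, and at 0.344 CPM in PyMT-N, a 106-fold difference. Masp1 had 802 UMIs in PyMT-N (10.6 CPM) and 5 in PyMT-M. Fcna, a lectin pathway recognition gene, had 694 UMIs in PyMT-M (5.74 CPM, 12.1% of the cells) and 0 in PyMT-N. With that 0 set to 3 counts it was 145-fold higher in PyMT-M, a log2 ratio of 7.18 with an interval from 6.87 up. Cd46 stood at 15.0 and 2.83 CPM, whereas Clu (175 and 257 CPM) and Cr1l (49.9 and 45.5 CPM) stood within 2-fold. Of the 17 other complement genes compared in these cells, 6 were higher and 5 lower past 2-fold in PyMT-M, in a class where 21.5% of all genes stood higher and 27.6% lower.

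In fibroblasts C2 stood at 140 CPM in PyMT-M and 32.0 CPM in PyMT-N and Masp1 at 63.3 and 69.9 CPM. Lymphatic cells of PyMT-N held Susd4, a membrane regulator, at 42.0 CPM, and no other class of that library exceeded 1 CPM. The C1q chain C1qa stood at 125 CPM in Ptprc+ cells of PyMT-M and 790 CPM in those of PyMT-N. The PyMT-N value came from 3493 UMIs, and 56 of its cells were also blood endothelial. Blood endothelial cells of PyMT-N held 1685 C1qa UMIs, of which 8 were left without Ptprc+ cells. The counts of Mbl1, Mbl2, Fcnb, Colec10, C8b and C4bp were 0 in all 5 classes of both libraries.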
